A study of Homo sapiens with 5 samples.

Results

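Immediate early genes are the genes that a cell switches on within minutes of a growth factor, a depolarising stimulus or a stress, without making new protein first. Kinase cascades, foremost the ERK and other MAP kinases, activate factors already bound at their promoters, such as serum response factor with its ELK partners and CREB. The proteins made, zinc finger factors of the EGR family and the FOS, JUN and ATF subunits of AP-1, then switch on later genes, and the transcripts normally decay quickly. In neuroblasts and sympathetic neurons the same genes answer nerve growth factor and calcium entry. The genes described here are EGR1, EGR2, EGR3, FOS, FOSB, JUN, JUNB, ATF3, DUSP1 and IER2, 10 in all, taken with every probe set that the platform annotation assigns to the gene alone. DUSP1 is a MAP kinase phosphatase and not a transcription factor. The annotation used here gave 18 probe sets for 9 of the genes, of 54675 probe sets and 19775 named genes on the array. The expression of EGR2 was not analysed here.

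The arrays followed IMR32, an established human neuroblastoma line that carries a stably transfected, inducible hairpin directed at the MEIS1b form of the homeobox gene MEIS1. The 5 arrays comprised 1 of cells without doxycycline (0 h) and 4 of cells harvested once each at 24, 48, 96 and 192 h of doxycycline exposure. The hairpin construct was present throughout, and the labels mention controls kept without doxycycline, of which the 0 h array is the 1 analysed here, and no doxycycline-treated line without the hairpin was analysed here, so hairpin, doxycycline and time in culture cannot be told apart. Whether the line was a clone or a pool is not given in the sources used here. Values are MAS5 signals, a brightness per probe set scaled to the same trimmed mean on each array. No time point was replicated.

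The brighter MEIS1 probe set read 1052, 851.5, 847.2, 857.0 and 786.6 at 0, 24, 48, 96 and 192 h, and the other read 597.2, 495.9, 560.4, 490.4 and 443.8. With 4.7 added to every signal, as explained below, they stood at 74.9% and 74.5% of their 0 h values at 192 h. The change did not pass the trend test described below (limma adjusted p = 0.251). Among markers of the sympathetic lineage, GATA3 read 2681.0 or more and MYCN 3957.2 or more on every array, whereas TH, tyrosine hydroxylase, was dim, at 2.1 to 28.5. Of the 7 tested sympathetic markers 1 passed the trend, against 3.47% of all tested genes. It was CHGA, chromogranin A, which read 998.2, 919.7, 1336.5, 1807.8 and 1756.3 and rose by 1.04 ± 0.18 (SE, limma adjusted p = 0.00833). Within the induced arrays CHGA rose by 0.97 (limma adjusted p = 0.0285). The median trend of the 7 was 0.62 on the log2 scale. PHOX2A (0.62, limma adjusted p = 0.0629), HAND2 (0.997, 0.108) and ISL1 (0.75, 0.119) did not pass. GATA3 (0.14), MYCN (0.014) and DBH (-0.0083) did not pass either and had small trends. DBH read 264.4 at 96 h and 103.3 at 192 h, against 137.0 at 0 h. Summed signals of blood, endothelial, epithelial and Schwann cell markers stayed between 12.1 and 57.8. The fibroblast sum of 149.8 at 192 h, against 484.7 at 0 h, was nearly all PDGFRA, with DCN at 19.0 or less and LUM at 12.7 or less. PDGFRA, the 1 tested fibroblast marker, fell in the trend by 1.85 ± 0.18 (SE, limma adjusted p = 0.00028), as did 1.46% of all tested genes. Within the induced arrays PDGFRA fell by 1.53 (limma adjusted p = 0.00338), as did 0.578% of all tested genes. The part of these marker changes in the results below was not tested. The 24 h array had the lowest median signal (16.0, against 17.8 at 0 h) and the most probe sets at the floor (8.15%, against 6.81% at 0 h), and the poly-A spike-in controls read 0.10 higher at 24 h and 0.37, 0.47 and 0.19 lower at 48, 96 and 192 h than at 0 h on the log2 scale. The arrays measure bulk RNA, in which fewer cells with a transcript and less transcript per cell cannot be told apart.

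The 250 bases before the transcription start are shown for EGR1 and JUN, which had a step up of at least 2-fold. They are also shown for DUSP1, which passed a test of its trend. These genes were thus picked by their signals in these data, and any link of their elements to the signals was not tested. Sequences are from RefSeq on GRCh38.p14, 5′ to 3′ in the direction of transcription and ending at the base before the start. Capitals mark matches to the motifs searched on both strands. The motifs were the CArG box, bound by serum response factor, the cyclic AMP response element TGACGTCA, the JUN-type AP-1 element TGACATCA, the AP-1 element TGANTCA and the EGR element GCGNGGGCG. The EGR1 window lies at chr5:138465229-138465478 on the plus strand, the JUN window at chr1:58784048-58784297 on the minus strand and the DUSP1 window at chr5:172771196-172771445 on the minus strand.
EGR1: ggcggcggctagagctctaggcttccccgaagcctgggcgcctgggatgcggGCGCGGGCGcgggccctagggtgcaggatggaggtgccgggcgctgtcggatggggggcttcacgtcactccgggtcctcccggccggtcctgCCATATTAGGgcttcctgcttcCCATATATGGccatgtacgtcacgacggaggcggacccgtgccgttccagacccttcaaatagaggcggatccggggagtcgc
JUN: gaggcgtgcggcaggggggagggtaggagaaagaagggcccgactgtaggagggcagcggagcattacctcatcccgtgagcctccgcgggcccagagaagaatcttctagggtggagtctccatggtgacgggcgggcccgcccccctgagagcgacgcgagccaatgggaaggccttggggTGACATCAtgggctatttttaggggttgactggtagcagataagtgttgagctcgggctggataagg
DUSP1: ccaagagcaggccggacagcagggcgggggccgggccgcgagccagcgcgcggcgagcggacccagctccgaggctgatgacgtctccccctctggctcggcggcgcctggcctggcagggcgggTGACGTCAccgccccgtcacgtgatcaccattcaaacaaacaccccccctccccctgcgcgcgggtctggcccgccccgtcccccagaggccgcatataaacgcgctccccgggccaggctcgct
The EGR1 window held 2 CArG boxes, 105 to 96 and 83 to 74 bases before the start, and an EGR element. CArG boxes occur in 1.16% of 35116 such windows of RefSeq genes and the EGR element in 8.41%. The JUN window held 1 JUN-type AP-1 element, 67 to 60 bases before the start, present in 2.37% of windows. The DUSP1 window held 1 cyclic AMP response element, 125 to 118 bases before the start, found in 1.65% of windows. No window of FOS, FOSB, JUNB or IER2 held any of these motifs, and 1 of the 2 ATF3 start windows held the JUN-type element. An EGR2 start window also held a CArG box, 71 to 62 bases before the start, and EGR3 was not searched. Elements more than 250 bases before a start lie outside the windows. The AP-1 element, in 6.57% of windows, was in none of those examined for the members. A match is a description of letters and not of a bound site.

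To compare times, signals were converted to log2(signal + 4.7), where differences of dim genes come out too small. All fold changes, ranges and ratios between times are taken on signal + 4.7, so they understate those of the printed signals. Genes with a mean signal of at least 17.9 were tested, each through its brightest probe set, which left 11944 genes and 6 of the members: EGR1, JUN, JUNB, ATF3, DUSP1 and IER2. EGR3, FOS and FOSB did not reach that signal. Between neighbouring time points no test is possible, so a step of at least 2-fold was counted against the share of all tested genes with such a step. A limma trend over the 5 arrays, a limma contrast of the 4 induced arrays with the 0 h array, and a limma trend within the 4 induced arrays gave fitted log2 changes, with a threshold of 0.05 on p-values adjusted by Benjamini-Hochberg over all tested genes. In the trend 3.47% of genes passed (415 genes; 190, 254 and 240 when the 0, 96 or 192 h array was omitted). In the trend within the induced arrays 1.59% passed (190 genes, or 474 and 390 when the 96 or 192 h array was omitted). The trend without the 0 h array is this same fit, scaled to 4 steps.

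**Figure D1:**
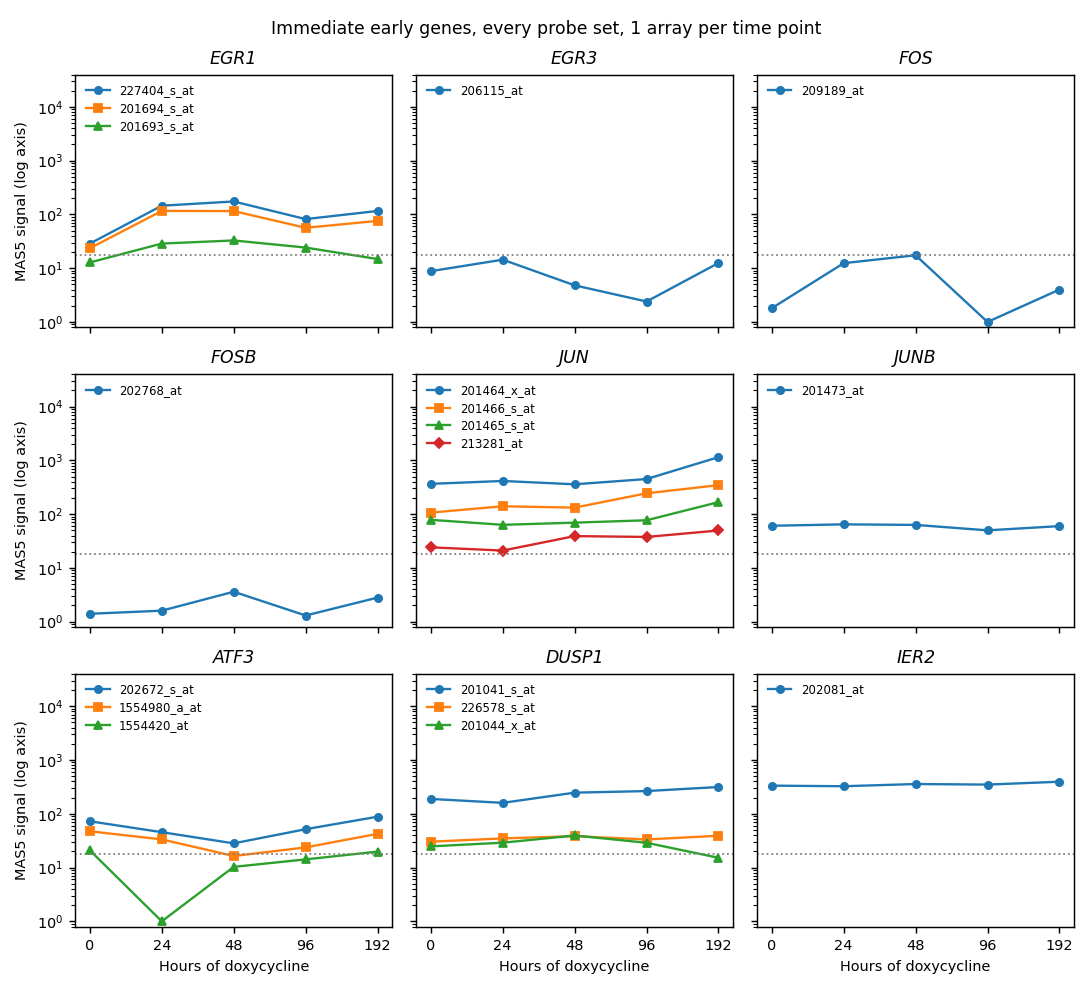
MAS5 signal (log axis) of each probe set of 9 immediate early genes against hours of doxycycline, 1 array per point; the dotted line marks a signal of 17.9, the minimum mean for testing. EGR1 stands higher at 24 h than at 0 h in all 3 probe sets, JUN is highest at 192 h in all 4, and FOS, FOSB and EGR3 lie under the line on every array.

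EGR1, a zinc finger factor induced by growth factors and membrane depolarisation, had its largest step between 0 and 24 h. Its brightest probe set read 28.7, 145.4, 174.2, 81.9 and 116.0 at 0, 24, 48, 96 and 192 h. The 0 h array was the lowest, and every induced array stood at least 2-fold above it (2.59-fold at 96 h to 5.36-fold at 48 h, on signal + 4.7). Only EGR1 of the 6 tested members did so, against 0.31% of all tested genes. The probe set 201694_s_at read 23.5, 116.4, 115.5, 56.4 and 75.8 and had the same shape, 4.29-fold above 0 h at 24 h and 2.17-fold at 96 h. The dimmest, 201693_s_at, read 12.8, 28.7, 32.8, 24.2 and 14.8, so at 192 h it was back near its 0 h signal, at 1.11-fold.

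The step of EGR1 did not lie between 0 and 24 h only. Its log2 ratio was 2.17 for 24 over 0 h and 0.25 for 48 over 24 h, then -1.05 for 96 over 48 h and 0.48 for 192 over 96 h. The decline between 48 and 96 h was also seen in the other probe sets, at -0.98 in 201694_s_at and -0.38 in 201693_s_at. After it the brightest probe set stood at 81.9, still above the 28.7 read at 0 h. A step up of at least 2-fold between 0 and 24 h was shown by 1 of the 6 tested members, against 0.678% of all tested genes, and a step down of that size between 48 and 96 h again by 1 of 6, EGR1, against 0.661%. With an offset 4 times larger the ratio of 96 over 48 h was -0.94, just short of 2-fold.

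As a contrast of induced with uninduced arrays, EGR1 had a fitted log2 change of 1.95 ± 0.34 (SE), the largest among the members. Its unadjusted p was 0.000252, but the limma adjusted p was 0.376, so it did not pass. In this contrast 0% of the 11944 genes passed the adjusted threshold, and 689 genes (5.77%) had an unadjusted p under 0.05. Leaving out each induced array in turn gave EGR1 changes of 1.80 to 2.15, with limma adjusted p of 0.265 to 0.415. The 0 h level in all of these rests on 1 array. The trend over all 5 arrays gave EGR1 1.17 ± 0.65 (limma adjusted p = 0.399), and within the induced arrays the fitted change was negative, at -0.60 ± 0.33 (limma adjusted p = 0.51). Omitting the 192 h array gave -1.19 there (limma adjusted p = 0.0756), and omitting the 96 h array -0.39 (0.574). The trend without the 0 h array is the same fit as that within the induced arrays, and per 4 steps its EGR1 change was -0.80.

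EGR3, a related zinc finger factor, and the AP-1 subunits FOS and FOSB stayed dim. FOS read 1.8, 12.4, 17.4, 1.0 and 4.0 at 0, 24, 48, 96 and 192 h, with the 96 h array at the floor. EGR3 read 8.8, 14.4, 4.8, 2.4 and 12.5, and FOSB did not go above 3.6 on any array. All these readings are under 17.9, the median of all signals, where MAS5 values are noisy. No change is read from them.

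**Figure D2:**
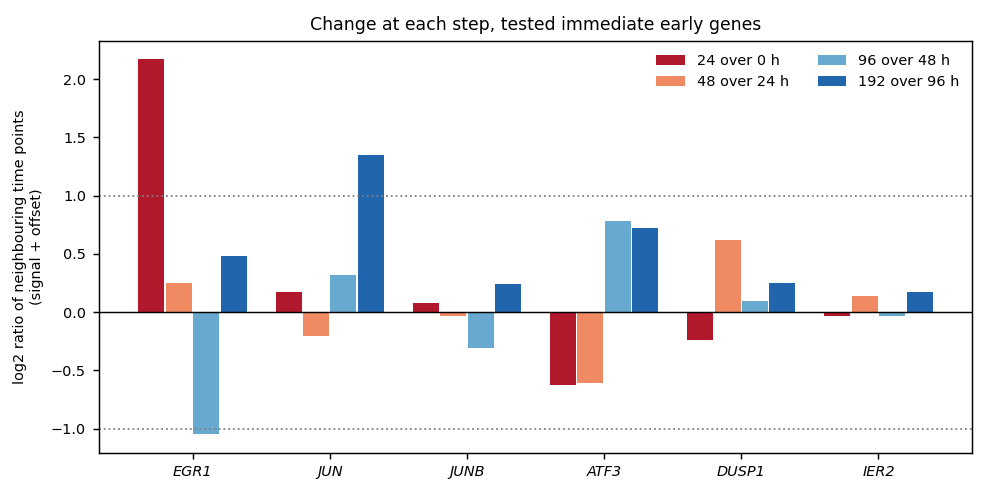
Log2 ratio of each time point over the one before it for the 6 tested immediate early genes, on the log2(signal + 4.7) scale, 1 array per time point; dotted lines mark 2-fold. The tallest bar is that of EGR1 for 24 over 0 h (2.17), and the tallest of JUN is for 192 over 96 h (1.34).

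JUN, the AP-1 subunit that pairs with FOS proteins or with itself, moved at the other end of the course. Its brightest probe set, 201464_x_at, read 365.6, 413.5, 358.6, 449.1 and 1147.3 at 0, 24, 48, 96 and 192 h. The 192 h array stood alone, and the other 4 lay close together. The log2 ratio was 0.18 for 24 over 0 h and 1.34 for 192 over 96 h. JUN was the only 1 of the 6 tested members with a step up of at least 2-fold between 96 and 192 h, against 0.712% of all tested genes.

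The other JUN probe sets were also highest at 192 h. The probe set 201466_s_at read 106.7, 139.9, 132.1, 243.7 and 346.0, with most of its increase after 48 h, and 201465_s_at read 78.3, 63.2, 69.4, 76.8 and 167.1. The dimmest, 213281_at, read 24.1, 21.0, 39.0, 37.6 and 49.6. The log2 ratio of 192 over 96 h was past 2-fold in 201465_s_at (1.08) but not in 201466_s_at (0.50) or 213281_at (0.36). Set against 0 h on signal + 4.7, the 192 h values were 3.11-fold, 3.15-fold, 2.07-fold and 1.88-fold in order of brightness. The suffix _x_at marks a probe set some of whose probes can also match other transcripts, and it is the brightest of the 4.

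In the trend over the 5 arrays JUN had a fitted log2 change of 1.36 ± 0.35 (SE), and its limma adjusted p of 0.0552 missed the threshold. Fitted over all 26805 tested probe sets, of which 1.84% passed, 201466_s_at rose by 1.64 ± 0.23 (limma adjusted p = 0.00534), and the other 3 JUN probe sets did not pass. JUN passed in 6 of 13 alternatives of this trend. These were the mean of its probe sets (1.24, limma adjusted p = 0.0265), time in hours (1.63, 0.00426) and array medians set equal (1.27, 0.0358). It also passed with the spike-in level as a covariate (2.15, limma adjusted p = 0.00215) and without the 48 h (1.36, 0.0332) or 96 h array (1.62, 0.0223). Without the 192 h array its change was 0.27 (limma adjusted p = 0.609). Within the induced arrays the change was 1.41 ± 0.33 (limma adjusted p = 0.0633). There JUN passed in 5 of 11 alternatives, with the mean of its probe sets (1.26, limma adjusted p = 0.0309), with time in hours (1.61, 0.014) and without the 24 h (2.50, 1.48e-05), 48 h (1.28, 0.0225) or 96 h array (1.61, 2e-16), whereas without the 192 h array it was at 0.18 (0.812). Fits of 3 arrays have 1 residual degree of freedom, so their error is mostly the spread pooled over all genes. Without the 96 h array it is wholly that pooled spread, so the p-value there does not reflect the scatter of JUN itself. Among the probe sets 201466_s_at passed within the induced arrays too (1.41, limma adjusted p = 0.0303), as did 0.511% of all tested probe sets. As induced minus uninduced, JUN gave 0.52 ± 0.49 (limma adjusted p = 0.942).

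JUNB, an AP-1 subunit that often acts against JUN, was flat. It read 60.7, 64.5, 63.0, 49.9 and 59.8 at 0, 24, 48, 96 and 192 h, a range of 1.27-fold on signal + 4.7. The largest step of JUNB was -0.31 on the log2 scale, between 48 and 96 h, and its trend was -0.15 ± 0.27 (SE, limma adjusted p = 0.855).

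ATF3, a stress-induced bZIP factor of the ATF family, was lowest on the early induced arrays. Its brightest probe set, 202672_s_at, read 72.6, 45.5, 28.2, 51.7 and 88.3 at 0, 24, 48, 96 and 192 h. On signal + 4.7, the 48 h value was 0.426 of the 0 h value, and the 192 h value was 1.20 times it. The probe set 1554980_a_at read 47.3, 33.4, 16.4, 23.7 and 42.4 and had the same dip at 48 h. The third, 1554420_at, did not pass the signal filter, and it read 20.9, 1.0, 10.3, 14.2 and 19.8, with the 24 h array at the floor. All 3 ATF3 probe sets thus read lower at 24, 48 and 96 h than at 0 h.

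With every array included, none of the 3 fits passed for ATF3. The contrast of induced with uninduced arrays gave -0.51 ± 0.46 (SE, limma adjusted p = 0.935), the trend gave 0.28 ± 0.50 (0.853) and the trend within the induced arrays gave 1.03 ± 0.43 (0.334). The trend of ATF3 turned to -0.79 without the 192 h array. Within the induced arrays the ATF3 change was 0.25 to 2.25 when 1 array was omitted, and it passed once, without the 24 h array (2.25, limma adjusted p = 0.0273). A straight line describes a dip and a return poorly.

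DUSP1, the phosphatase that switches off p38, JNK and ERK in the nucleus, rose in the trend. Its brightest probe set, 201041_s_at, read 189.1, 159.9, 247.3, 264.8 and 315.0 at 0, 24, 48, 96 and 192 h. The 24 h array was the lowest and the signal was higher at each later time. The fitted log2 change was 0.86 ± 0.20 (SE, limma adjusted p = 0.036), and it was the 1 member of 6 that passed, against 3.47% of all tested genes. It was also the 1 member that passed within the induced arrays, where it rose by 0.89 ± 0.19 (limma adjusted p = 0.0427), against 1.59% of genes. Its largest step was 0.61, between 24 and 48 h, and the step between 0 and 24 h was -0.24.

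The call for DUSP1 rests on that probe set and on several arrays. The probe set 226578_s_at read 30.3, 34.9, 38.3, 33.3 and 39.1, and 201044_x_at read 24.8, 29.0, 39.5, 28.9 and 15.2, so 201044_x_at was lowest at 192 h, where the brightest was highest. With the mean of the 3 probe sets the DUSP1 trend was 0.21 (limma adjusted p = 0.723), and it did not pass without the 24 h (0.0545), 96 h (0.0779) or 192 h (0.171) array, with time in hours (0.0673), with no signal filter (0.194) or with the spike-in level as a covariate (0.215). Within the induced arrays DUSP1 was not past the threshold in 6 of 11 alternatives: without the 24 h array (0.51, limma adjusted p = 0.507), with the mean of its probe sets (0.055, 0.967), with no signal filter (0.467), with time in hours (0.181), with array medians set equal (0.131) and with quantile normalization (0.0969). Fitted over all probe sets, 201041_s_at did not pass either, in the trend (limma adjusted p = 0.0544) or within the induced arrays (0.0776).

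IER2, a small nuclear immediate early protein, had steady signals. It read 334.1, 325.7, 357.8, 349.4 and 395.1 at 0, 24, 48, 96 and 192 h, a range of 1.21-fold on signal + 4.7. The trend of IER2 was 0.23 ± 0.14 (SE, limma adjusted p = 0.462).

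**Figure D3:**
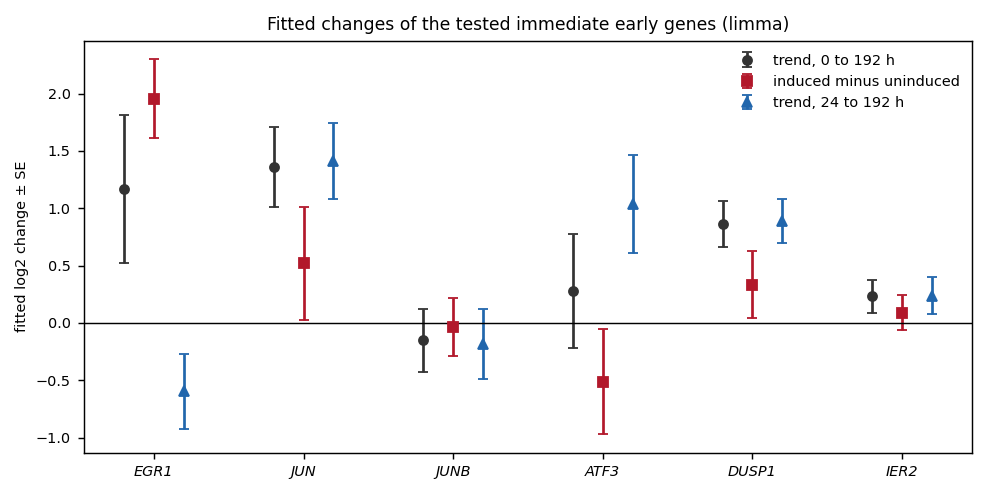
Fitted log2 change ± SE of the 6 tested immediate early genes in 3 limma fits: the trend over 5 arrays, the 4 induced arrays minus the 0 h array, and the trend within the 4 induced arrays. EGR1 has its highest value in the contrast of induced and uninduced arrays (1.95), and JUN (1.41) and DUSP1 (0.89) in the trend within the induced arrays.

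Across the 6 tested members the largest absolute step fell between 0 and 24 h for 1 (EGR1), between 24 and 48 h for 1 (DUSP1), between 48 and 96 h for 2 (JUNB and ATF3) and between 96 and 192 h for 2 (JUN and IER2). Over all tested genes the corresponding shares were 23%, 23.6%, 26.7% and 26.7%. These are the steps of the brightest probe sets. In JUN the largest step of 201466_s_at lay between 48 and 96 h (0.86), and that of 213281_at between 24 and 48 h (0.77). The median fitted change of the 6 members was 0.57 in the trend, 0.21 for induced minus uninduced and 0.56 within the induced arrays, beside 0.0027, 0.00018 and -0.0032 over all tested genes. These medians rest on the brightest probe sets. Averaging each gene's probe sets instead lowered the trend of EGR1 to 0.67, JUN to 1.24, ATF3 to -0.0016 and DUSP1 to 0.21. Within the induced arrays their changes were then -0.74, 1.26, 0.72 and 0.055, also lower. JUNB and IER2 have 1 probe set each. EGR1 was the 1 member whose 4 induced signals all lay above its 0 h signal, against 21.6% of all tested genes. Between 0 and 24 h a 2-fold step was thus shown by EGR1 and by no other tested member.

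The genes with a course most like that of EGR1, by the root mean square difference of log2 ratios to 0 h over the 4 induced times, were MLYCD (0.30), SPRR2G (0.46), PTK6 (0.47), LINC00482 (0.49) and ZNF335 (0.50). The first 4 were at 3.7 to 4.9 at 0 h and did not exceed 31.1 on any array, so their ratios depend on the offset. ZNF335 read 15.8, 45.3, 94.9, 36.0 and 57.6, lowest at 0 h and highest at 48 h, as EGR1 was. For JUN the nearest were CUX2 (0.17), GRIK3 (0.25), GRK5 (0.25), ZNF382 (0.27) and ATP11A (0.28). GRIK3, a kainate receptor subunit, read 58.3, 52.6, 76.2, 73.0 and 198.4 and rose in the trend (1.53, limma adjusted p = 0.0438), as did ATP11A (0.94, 0.0361). These nearest genes were picked for their likeness, over 4 ratios that share the 0 h array.

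Beyond the 10 genes, further genes of the same pathways were followed in lists. Of the 3 other EGR family genes and corepressors, EGR4, NAB1 and NAB2, none passed the trend, against 3.47% of all tested genes. NAB1, a corepressor that binds EGR1, read 583.3, 540.7, 482.4, 424.2 and 415.6, lower at each time, with a trend of -0.53 (limma adjusted p = 0.0541). NAB2, a corepressor that EGR1 itself induces, read 80.4, 101.8, 93.1, 117.8 and 107.5. Of 6 tested other AP-1 subunits and partners 0 passed, against 3.47% of all tested genes, with a median trend of -0.19. All 6 read lower at 24 h than at 0 h, against 50.2% of all tested genes. With array medians set equal, 5 of the 6 did, against 31.7% of genes, and with quantile normalization 5, against 48.4%; JDP2 was the exception in both. The AP-1 and ATF4 lists had the highest such shares. Lower at 24 h were 2 of 3 EGR genes and corepressors, 12 of 21 other immediate early genes and 13 of 17 ERK feedback genes. So were 5 of 7 upstream factors and 2 of 7 heat shock genes. With array medians set equal these counts were 1, 6, 9, 3 and 1. JUND, the AP-1 subunit least dependent on stimulation, read 1166.1, 1030.1, 1165.3, 1308.5 and 1196.1.

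Of 21 tested other immediate early genes (30 listed), 2 rose and 0 fell in the trend, against 2.02% and 1.46% of all tested genes, with a median of 0.30. SIK1, a CREB-induced kinase that damps CREB signalling, read 34.0, 41.5, 63.4, 74.3 and 84.6 and rose by 1.27 ± 0.27 (SE, limma adjusted p = 0.0249). TRIB1, a pseudokinase, read 254.8, 249.1, 293.6, 322.2 and 397.4 and rose by 0.65 ± 0.16 (limma adjusted p = 0.0417). SIK1 did not pass without the 0, 24, 96 or 192 h array or with the mean of its probe sets (0.105), nor TRIB1 without any 1 of the arrays or with array medians set equal (0.148). None of the 21 was 2-fold apart between 24 and 0 h, against 1.62% of all tested genes. The largest 24 h ratios were those of RHOB (0.71 on the log2 scale), HBEGF (0.65), PLK2 (0.62) and SGK1 (0.61).

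ERK feedback genes limit the kinase that drives EGR1 and FOS. Of 17 tested MAP kinase phosphatases and ERK feedback genes 1 rose and 2 fell in the trend, against 2.02% and 1.46% of all tested genes, with a median of -0.12, and the other 14 did not pass. PHLDA1, an ERK-induced gene, read 112.6, 57.4, 55.7, 30.7 and 32.9 and fell by 1.64 ± 0.33 on the log2 scale (SE, limma adjusted p = 0.0184). The ETS factor gene ETV5, an ERK target, read 386.7, 253.5, 271.7, 128.0 and 147.3 and fell by 1.48 ± 0.25 (limma adjusted p = 0.00823). Its relative ETV1 read 100.3, 63.1, 78.3, 48.3 and 37.8, a trend of -1.19 (limma adjusted p = 0.0504), short of the threshold.

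DUSP2, a nuclear MAP kinase phosphatase like DUSP1, read 24.0, 33.3, 43.5, 55.5 and 66.2, higher at each time. It rose by 1.31 ± 0.30 (SE, limma adjusted p = 0.036). PHLDA1 did not pass with the mean of its probe sets (-0.86, limma adjusted p = 0.151) or without the 0 h array (0.338), ETV5 not without the 0 h array (0.115), and DUSP2 not without the 0, 24, 96 or 192 h array (0.0667 to 0.246).

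Among 7 tested factors upstream of immediate early genes, 0 rose and 1 fell in the trend, against 2.02% and 1.46% of all tested genes, with a median of -0.16. ELK3, a serum response factor partner that represses in its resting state, read 261.3, 280.7, 204.9, 166.8 and 160.4 and fell by 0.84 ± 0.18 on the log2 scale (SE, limma adjusted p = 0.0274). The mean of the ELK3 probe sets gave -0.25 (limma adjusted p = 0.637), and the call was lost without the 0, 24, 96 or 192 h array. SRF, serum response factor itself, read 117.1, 103.7, 106.5, 94.2 and 104.1, and CREB1 read 356.0, 302.8, 299.5, 410.4 and 368.5. Neither SRF nor CREB1 passed. Of the 6 pathway genes past the trend threshold, SIK1, TRIB1, PHLDA1, ETV5, DUSP2 and ELK3, none passed with no signal filter (limma adjusted p of 0.148 to 0.184) or with the spike-in covariate (0.052 to 0.188), and with time in hours TRIB1 alone did (0.0434), the other 5 being at 0.0505 to 0.1.

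**Figure D4:**
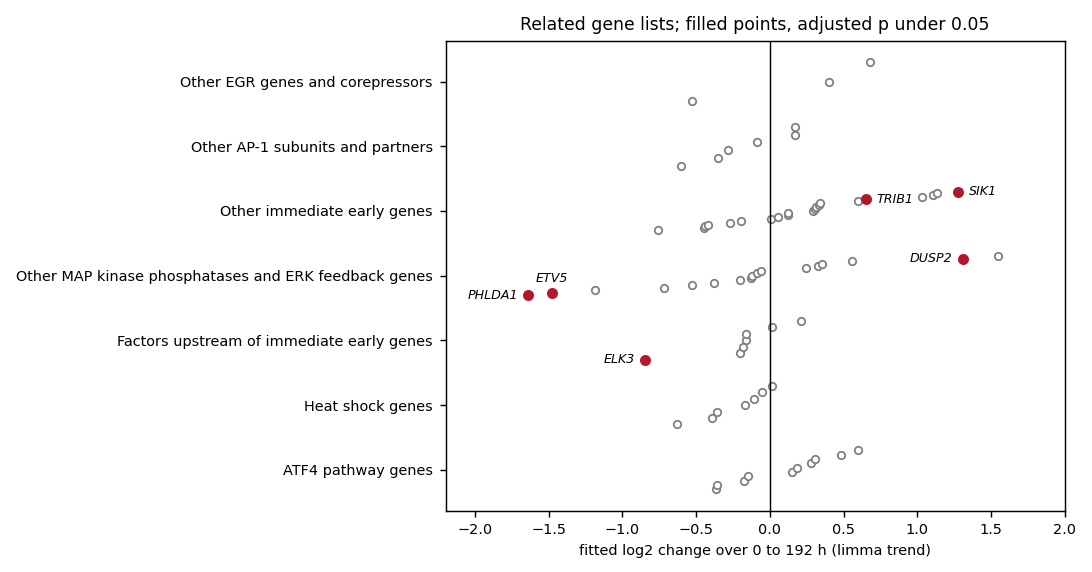
Fitted log2 change over 0 to 192 h (limma trend, 1 point per tested gene) for 7 lists of related genes; filled, named points had an adjusted p under 0.05. PHLDA1 (-1.64), ETV5 (-1.48) and ELK3 (-0.84) lie on the negative side, and SIK1 (1.27), DUSP2 (1.31) and TRIB1 (0.65) on the positive side.

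Genes that answer rough handling or nutrient stress were read beside the members, since ATF3 and EGR1 answer such stress too. None of 7 tested heat shock genes passed the trend (median -0.17), against 3.47% of all tested genes. At 24 h their median log2 ratio to 0 h was 0.04, and the inducible co-chaperone DNAJB1 read 594.0, 497.1, 430.6, 489.4 and 423.7. HSPB1 read 1746.7, 2432.5, 1596.9, 1693.7 and 1209.8 and fell within the induced arrays, by 0.88 ± 0.18 (SE, limma adjusted p = 0.0396), as 1 of the 7 against 0.578% of all tested genes, a call lost in 5 of 11 alternatives: without the 24 h array (limma adjusted p = 0.334), with quantile normalization (0.077), with the mean over probe sets (0.0554), with time in hours (0.106) and with no filter (0.492).

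Of 10 tested genes of the ATF4 pathway, in which ATF3 is a target, 0 passed the trend (median 0.17), against 3.47% of all tested genes. All 10 read lower at 24 h than at 0 h, with a median log2 ratio of -0.32, against -0.0016 over all tested genes, of which 50.2% read lower. With array medians set equal 9 of the 10 did, all but PSAT1, at a median of -0.21, against 0.11 over all tested genes. CHAC1, a glutathione-degrading enzyme induced by ATF4, read 33.7, 5.3, 13.9, 33.0 and 25.4, and ATF4 itself read 2470.9, 2175.8, 2137.4, 2227.1 and 2096.1. CHAC1 thus read lowest at 24 h and near its 0 h signal at 96 h, whereas the brightest ATF3 probe set was lowest at 48 h. The 24 and 48 h signals of CHAC1 are under 17.9, where MAS5 values are noisy, so the time of its low is uncertain.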

How the data were processed

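Total RNA of IMR32 cells, 1 sample at each of 5 time points, was measured on Affymetrix U133 Plus 2.0 arrays. Per the submitters' processing notes, MAS5 and GCOS were used, with no versions. The authors' deposited values are taken to be log2 MAS5 signals, since 100% of them, raised as powers of 2, came within 0.01 of a multiple of 0.1, and the mean trimmed by 2% at each end was 100.02 to 100.03 on every array. The floor is a signal of 1. Detection calls and probe intensities were not used here; the number of arrays limits the precision.

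An offset of 4.7 was added to the linear signals (the 25th percentile of signals, median of the 5 arrays) and log2 values were formed. The 62 control probe sets were left out. Symbols came from GEO's platform annotation (41097 probe sets with 1 gene, 1801 with several, 11777 with none), and 41043 were found in RefSeq for GRCh38.p14. Fits used limma 3.58.1 in R 4.3.3 with trend=TRUE. Residual degrees of freedom were 3, 3 and 2 for the trend, the induced contrast and the trend within induced arrays. In the contrast the residual error is the spread among the 4 induced times, and in the trends it is departure from a straight line. Real change with time therefore enters the SE and p-values, which do not measure scatter between replicates. The fits were tested on simulated data. Alternatives were other offsets, scalings, filters, time codings, probe set averaging, leaving out each array and, added after seeing the data, a spike-in covariate. Members, lists and fits were chosen with earlier results of these data known. Named were all members, MEIS1, listed genes past a threshold or with the largest 24 h ratios, and the 5 genes most like EGR1 and JUN; further listed genes were named after their values were seen.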

Additional observations from a re-analysis of the deposited data

How the results depend on the processing

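No paired analysis was possible because each time point has 1 array. The EGR1 contrast of induced with uninduced arrays stayed positive and short of the threshold in all 11 alternatives, with limma adjusted p between 0.0955 and 0.86. Reversed directions, none past the threshold, were EGR1 in the trend without the 0 h array (-0.80; -0.80 to 1.75 without 1 array), ATF3 in the trend with the mean of its probe sets (-0.0016) and without the 192 h array (-0.79; -0.79 to 1.38 without 1 array), and JUNB in the induced contrast with the spike-in covariate (0.064) and without the 96 h array (0.037; -0.077 to 0.037 without 1 array). The trend without the 0 h array is the same fit as that within the induced arrays, so the EGR1 reversal is not a separate result. Over all genes, the trend called 415 genes, 21 with no filter, 241 with the spike-in covariate, and 190 to 416 without 1 array. The induced contrast called 0 (689 with an unadjusted p under 0.05), 2 with array medians set equal and 0 to 1 without 1 array. The trend within the induced arrays called 190 genes, 0 with no filter (limma, more genes tested), 75 with quantile normalization, 108 with time in hours and 184 to 474 without 1 array. Steps of at least 2-fold, between 0 and 24, 24 and 48, 48 and 96, and 96 and 192 h, numbered 194, 187, 222 and 215 genes, 41, 36, 64 and 50 with an offset 4 times larger, and 1410, 1632, 1854 and 1661 with no filter. Setting array medians equal shifts the median gene by 0.11 at 24 h relative to 0 h; 45.4% of trend calls were then higher, against 58.1%, and 39.7% against 63.7% within the induced arrays. The cause of the other differences was not tested. Low signal limits FOS, FOSB and EGR3.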
